A study of Mus musculus with 9 samples.

Results

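Lad1, Prag1, Casr, Scube1, Antxr2, Glis3, Hipk2 and Tgm1 are 8 of the 22337 genes in the expression table of a mouse retina RNA-seq study, and they were chosen by their symbols because their mean level was higher in MSC-EVs-treated than in NS-treated rd10 retinas. The higher mean after MSC-EVs is therefore what selected them and is described here without a test. Retinas were compared at postnatal day 28 (P28) in 3 groups of 3 libraries. The WT group was non-treated C57BL/6J mice. Both other groups were rd10 mice, which carry the rd10 allele of Pde6b, the rod phosphodiesterase subunit gene whose loss of function leads to rod degeneration, and they received injections into both eyes at P14 and P21. The NS group received 1 µL of normal saline and the MSC-EVs group (MSC-Exo) 1 µL of extracellular vesicles from human umbilical cord mesenchymal stem cells. The rd10 mice of the 2 treatments were littermates, whereas the WT mice came from another supplier and received no injection, so genotype, source and injection cannot be told apart between WT and NS. The labels do not say whether each library came from its own mouse, and a p-value here measures the spread between libraries.

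The 8 genes act at different places in a cell. Lad1 encodes ladinin-1, a protein of the anchoring filaments that hold epithelia to their basement membrane, and Antxr2 encodes a surface receptor that binds collagen and laminin and also admits anthrax toxin. Scube1 encodes a secreted and surface glycoprotein with EGF-like repeats and a CUB domain, from a family that includes a helper of hedgehog release. Casr encodes the calcium-sensing receptor, the G protein-coupled receptor by which parathyroid cells read extracellular calcium. Prag1 encodes pragmin, a pseudokinase scaffold that binds the small GTPase Rnd2 and the kinase Csk. Hipk2 encodes a nuclear serine/threonine kinase that phosphorylates p53 and corepressors, Glis3 a zinc finger transcription factor related to the Gli proteins, and Tgm1 the transglutaminase that cross-links the cornified envelope of the epidermis. In a degenerating retina, Müller glia become reactive and remodel their matrix while microglia clear dying rods, and a bulk retinal library mixes RNA of all these cells. A lower number of cells of a type and less RNA per cell cannot be told apart in such libraries.

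The genes are spread over 8 chromosomes. On GRCm38 with GENCODE M21, Lad1 lies at chr1:135818598-135833342 and Prag1 at chr8:36094828-36147787, both on the plus strand. On the minus strand lie Casr at chr16:36493696-36562141, Scube1 at chr15:83604999-83725021, Antxr2 at chr5:97882783-98031043, Glis3 at chr19:28258851-28680077, Hipk2 at chr6:38694390-38876165 and Tgm1 at chr14:55700009-55713926. All 8 are protein coding. An antisense gene, Gm49067, overlaps 182 exonic bases of Tgm1 (5.76% of its exonic length), and no source used here states that counting used the strand. Of the 50-base stretches of the Hipk2 transcripts, 4.77% also occur in transcripts of Ubn2, and Hipk2 had estimated counts with decimals in all 9 libraries, so its reads were partly shared out between features.

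RefSeq promoters on GRCm38.p6, from 250 bases before to 50 bases after a start site, were matched for 7 of the 8 genes, and 5 are shown because they span the range of base composition among genes that were chosen for moving alike. Both strands were searched for TATAAA, the letters of a TATA box, for GGGCGG, called a GC box, and for the CCAAT box. They were also searched for TGANTCA, which AP-1 factors bind, and for the STAT letters TTCNNNGAA, and matches are in capitals.
Lad1, chr1:135818348-135818647, plus strand: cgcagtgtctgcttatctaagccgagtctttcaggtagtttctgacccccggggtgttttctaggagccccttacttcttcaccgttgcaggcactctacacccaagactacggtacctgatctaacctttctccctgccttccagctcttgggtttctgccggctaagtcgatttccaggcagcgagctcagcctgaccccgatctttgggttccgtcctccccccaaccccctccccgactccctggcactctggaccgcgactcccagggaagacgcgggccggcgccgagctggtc
Antxr2, chr5:98030968-98031267, minus strand: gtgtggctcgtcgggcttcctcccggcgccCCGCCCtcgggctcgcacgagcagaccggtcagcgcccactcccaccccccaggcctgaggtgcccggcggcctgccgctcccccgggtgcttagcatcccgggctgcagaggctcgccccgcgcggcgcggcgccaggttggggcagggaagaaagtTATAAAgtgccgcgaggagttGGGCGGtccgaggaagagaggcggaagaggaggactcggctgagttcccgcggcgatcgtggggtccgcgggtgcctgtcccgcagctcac
Casr, chr16:36562085-36562384, minus strand: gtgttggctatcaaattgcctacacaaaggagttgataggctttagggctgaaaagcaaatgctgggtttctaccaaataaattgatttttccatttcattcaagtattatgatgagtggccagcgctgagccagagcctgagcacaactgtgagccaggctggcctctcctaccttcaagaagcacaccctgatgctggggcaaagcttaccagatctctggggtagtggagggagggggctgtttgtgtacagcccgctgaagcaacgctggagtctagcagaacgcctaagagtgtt
Hipk2 (promoter 2), chr6:38876141-38876440, minus strand: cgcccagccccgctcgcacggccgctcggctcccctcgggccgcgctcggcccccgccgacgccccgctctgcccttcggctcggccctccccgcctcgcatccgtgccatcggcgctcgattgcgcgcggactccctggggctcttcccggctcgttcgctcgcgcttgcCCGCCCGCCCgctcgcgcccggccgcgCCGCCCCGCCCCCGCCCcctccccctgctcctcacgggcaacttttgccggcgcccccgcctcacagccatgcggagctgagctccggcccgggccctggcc
Tgm1 (promoter 2), chr14:55713443-55713742, minus strand: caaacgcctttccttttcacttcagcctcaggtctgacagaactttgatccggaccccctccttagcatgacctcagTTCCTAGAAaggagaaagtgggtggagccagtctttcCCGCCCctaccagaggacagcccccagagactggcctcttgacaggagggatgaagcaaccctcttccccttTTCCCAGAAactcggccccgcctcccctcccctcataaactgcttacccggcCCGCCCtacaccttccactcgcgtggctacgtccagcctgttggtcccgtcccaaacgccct

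The promoters did not share a motif. The GC box was found in Antxr2, Glis3, Hipk2 promoter 2, Scube1 and Tgm1 promoter 2, against 35.7% of 32851 RefSeq mouse promoters of this length, and Hipk2 promoter 2 held 5 matches, some overlapping. Only Antxr2 held the TATA letters, 62 bases before the start (13.6% of all promoters). CCAAT was present in Scube1 and in Tgm1 promoter 1 (37.4% of all), and the AP-1 letters in none of the promoters matched (7.81% of all). Tgm1 promoter 2 held the STAT letters at 173 and 64 bases before the start, which 8.3% of all promoters hold at least once. GC content ran from 49.7% in Casr, with 4 CpG, and 60.3% in Lad1 to 80.7% in Hipk2 promoter 2, with 48 CpG, beside a median of 52.7% and 7 CpG over all promoters. A match describes letters in a window and not a bound site.

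The 9 libraries held 19491721 to 62532357 estimated counts, and MSC-EVs replicate 3 was the deepest. Levels are given as CPM, counts scaled to a common library total after TMM normalization, in which 1 count was worth 0.0155 to 0.0501 CPM, and differences as log2 fold changes ± SE from edgeR's quasi-likelihood test with Benjamini-Hochberg adjustment over all genes tested. The rod list of 10 markers summed to 77000 to 82600 CPM in WT, 15500 to 22300 CPM in NS and 16100 to 22500 CPM in MSC-EVs, and all 10 were lower in both rd10 groups than in WT, so the labelled tissue was seen in every library. MSC-EVs libraries did not stand together in every respect. The 4 Y-linked genes Kdm5d, Uty, Ddx3y and Eif2s3y summed to 183 and 189 CPM in MSC-EVs replicates 1 and 2 but to 0.358 CPM in replicate 3, and to at most 0.501 CPM in the WT and NS libraries. Among the MSC-EVs libraries, only replicate 3 therefore matched NS in Y-linked expression, and results that rest on the MSC-EVs libraries are also given for replicate 3 alone, which is then assumed to vary like the libraries of the other group.

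**Figure D1:**
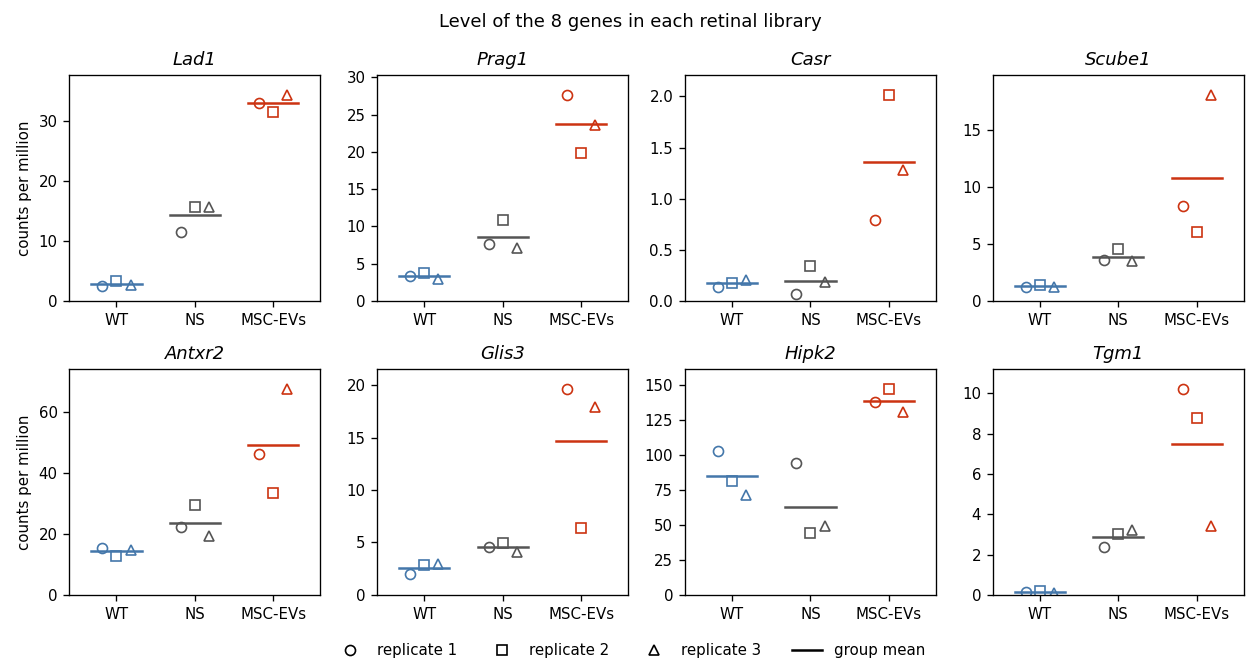
CPM (y axis, linear, from 0) of each gene in the 3 WT, 3 NS and 3 MSC-EVs libraries, with a symbol for each replicate number and a line for the group mean. Every MSC-EVs library lies above every NS library in all 8 panels, which is the direction the genes were selected on, and the NS libraries lie above WT in all panels but Casr and Hipk2.

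First the rd10 retina treated with NS was compared with WT. The WT libraries played no part in choosing the genes, but the NS libraries did, as the low end of the selecting difference. Of the 8 genes, 7 were tested, since Casr did not pass the expression filter, and 6 rose: Lad1, Prag1, Scube1, Antxr2, Glis3 and Tgm1. In 4 of these, Lad1, Prag1, Scube1 and Tgm1, the rise was at least 2-fold. None fell. Over all 14644 genes tested in this comparison, 31.2% were called higher and 30.1% lower, so a call was common in this comparison. The median log2 fold change of the 7 genes was 1.33, beside 0.01 over all genes tested. The 3 NS libraries lay above the 3 WT libraries in 6 of the 8 genes, and in 33.7% of all genes tested.

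Among the matrix and surface genes, Lad1 stood at 2.47, 3.36 and 2.65 CPM in WT and at 11.5, 15.6 and 15.7 CPM in NS, a log2 fold change of 2.32 ± 0.17 with an edgeR adjusted p of 2.68e-07. The lowest NS library was far above the highest WT library. Antxr2 stood at 15.5, 12.8 and 14.7 CPM in WT and at 22.2, 29.5 and 19.3 CPM in NS. Its groups did not overlap either, but NS replicate 3 lay close to WT replicate 1, and the log2 fold change was 0.72 ± 0.15 (edgeR adjusted p = 0.00178). Scube1 was a low-level gene in WT, at 1.21, 1.39 and 1.2 CPM, and stood at 3.58, 4.56 and 3.53 CPM in NS (log2 fold change 1.61 ± 0.22, edgeR adjusted p = 5.17e-05). Its WT libraries were nearly alike, and all 3 NS libraries were above them.

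Casr was at the edge of detection in both groups. It had 3, 4 and 4 counts in the WT libraries and 2, 7 and 4 counts in the NS libraries. Summed over libraries these were 11 counts in WT (exact Poisson 95% interval 5.49 to 19.7) and 13 counts in NS (6.92 to 22.2), and the NS to WT ratio per effective library size was 1.06 with an exact 95% interval of 0.439 to 2.62. Such intervals cover counting error only. The groups overlapped, and a difference between WT and NS was not detectable at this depth.

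Of the signalling and nuclear genes, Prag1 stood at 3.37, 3.72 and 3 CPM in WT and at 7.71, 10.8 and 7.05 CPM in NS (log2 fold change 1.33 ± 0.19, edgeR adjusted p = 6.48e-05). Glis3 stood at 1.97, 2.82 and 2.95 CPM in WT and at 4.6, 4.95 and 4.12 CPM in NS (log2 fold change 0.82 ± 0.20, edgeR adjusted p = 0.0035). In both genes all NS libraries were above all WT libraries. Hipk2 was the only tested gene of the 8 that did not rise. It stood at 103, 81.3 and 71.5 CPM in WT and at 94.6, 44.6 and 49.5 CPM in NS, where replicate 1 lay inside the WT range and the other libraries below it (log2 fold change -0.43 ± 0.37, edgeR adjusted p = 0.373). Without NS replicate 1, Hipk2 was lower in NS (log2 fold change -0.87, edgeR adjusted p = 0.00379). When all 9 libraries were fitted together, Antxr2 and Glis3 kept their log2 fold changes but had adjusted p-values of 0.0523 and 0.122.

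Tgm1 showed the widest gap between WT and NS among the 8 genes. Its WT libraries held 3, 4 and 2 counts, or 0.135, 0.179 and 0.1 CPM, and its NS libraries stood at 2.37, 3.04 and 3.20 CPM. The gene was close to the limit of detection in WT and readily counted in every NS library. The NS to WT ratio of summed counts per effective library size was 20.2 (exact 95% interval 10.4 to 44.7, counting error only). The log2 fold change was 4.30 ± 0.36 (edgeR adjusted p = 7.96e-07). Tgm1 passed the expression filter here only through its NS libraries. It was not tested when 10 counts were required in every library.

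**Figure D2:**
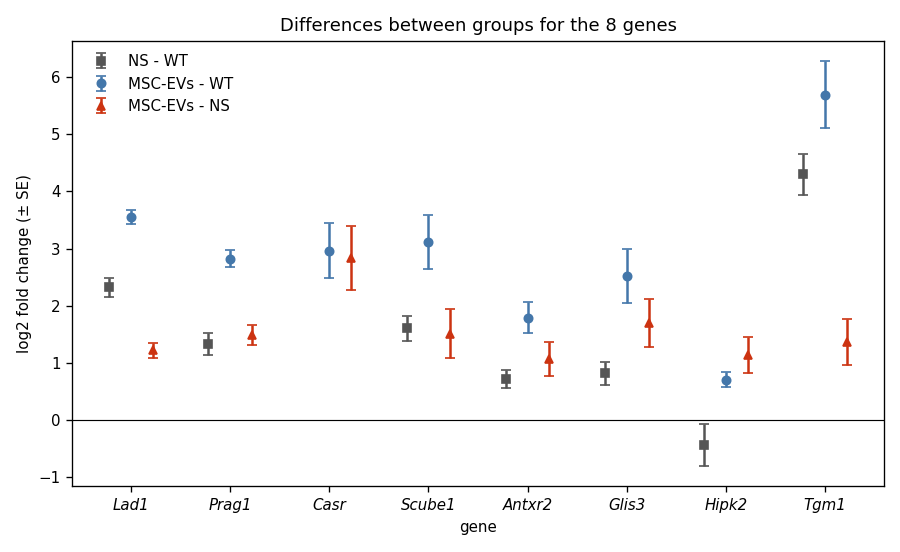
Log2 fold changes (y axis, symbols with bars of ± 1 SE) of the 8 genes for NS against WT, MSC-EVs against WT and MSC-EVs against NS, with no NS against WT value for Casr. Hipk2 is the only gene with a value below 0, at -0.43 for NS against WT, and Tgm1 has the highest, at 5.69 for MSC-EVs against WT.

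In MSC-EVs-treated rd10 retinas, the 8 genes stood further from WT than in NS-treated ones. Because the MSC-EVs libraries entered the choice as the high end, the tests against WT are not independent of it. All 8 genes were higher than in WT, 7 of them at least 2-fold, where 28.3% of 14623 genes tested were called higher and 27.2% lower. Casr and Tgm1 passed the expression filter here only through their MSC-EVs libraries, so the choice of genes favoured their calls. The 3 MSC-EVs libraries lay above the 3 WT libraries in all 8, beside 31.9% of all genes tested. The median log2 fold change of the 8 genes was 2.89, beside 0.00 over all genes tested. The log2 fold change was 3.55 ± 0.12 for Lad1, 2.82 ± 0.15 for Prag1 and 5.69 ± 0.59 for Tgm1, whose edgeR adjusted p-values were 6.54e-08, 6.37e-07 and 0.000138. Scube1, at 3.11 ± 0.47, Casr, at 2.96 ± 0.48, and Glis3, at 2.52 ± 0.47, had wider errors than Lad1 and Prag1. The error of Tgm1 was the widest of the 8. Antxr2 differed by 1.79 ± 0.27. Hipk2 differed least, by 0.71 ± 0.13 (edgeR adjusted p = 0.00242), and its call was lost with all 9 libraries in the fit (adjusted p = 0.077) and with MSC-EVs replicate 3 alone (adjusted p = 0.157).

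The difference that selected the genes, MSC-EVs against NS, is given as a description. The 3 MSC-EVs libraries lay above the 3 NS libraries in all 8 genes, and 12.8% of the 14765 genes tested showed the same. The edgeR threshold was passed by 3 of the 8, where 0.914% of all genes tested were called higher, and nothing is read from this count since the same values chose the genes. The median log2 fold change of the 8 was 1.43 and that of all genes tested 0.00.

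Lad1 and Hipk2 had the tightest MSC-EVs libraries. Lad1 stood at 33.1, 31.5 and 34.3 CPM after MSC-EVs, so that the highest library was 1.09 times the lowest, and its lowest was 2.01 times the highest NS library (log2 fold change 1.22 ± 0.13). Hipk2 stood at 138, 147 and 131 CPM, a 1.12-fold range, above NS libraries that themselves spread 2.12-fold (log2 fold change 1.14 ± 0.31). Hipk2 differed from the other genes in the order of its groups, since its NS mean of 62.9 CPM was below the WT mean of 85.2 CPM. Prag1 stood at 27.6, 19.9 and 23.6 CPM, a 1.38-fold range, and its lowest MSC-EVs library was 1.84 times its highest NS library (log2 fold change 1.49 ± 0.18).

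The matrix receptor Antxr2 and the secreted Scube1 were highest in the deep replicate 3. Antxr2 stood at 46.3, 33.3 and 67.3 CPM after MSC-EVs (log2 fold change 1.07 ± 0.30), and Scube1 at 8.28, 6.06 and 18 CPM (log2 fold change 1.51 ± 0.43). In both, replicate 2 was the lowest MSC-EVs library, at 1.13 and 1.33 times the highest NS library. Without replicate 3 the log2 fold changes were 0.75 for Antxr2 and 0.89 for Scube1, and with replicate 3 alone 1.52 and 2.23.

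Glis3 and Tgm1 each had an MSC-EVs library close to NS, but not the same library. Glis3 stood at 19.6, 6.41 and 17.9 CPM, so replicate 2 was near the NS range of 4.12 to 4.95 CPM (log2 fold change 1.70 ± 0.42). Tgm1 stood at 10.2, 8.80 and 3.44 CPM, so replicate 3 was near the highest NS library, at 3.20 CPM, and only 1.07 times it (log2 fold change 1.37 ± 0.40). With replicate 3 alone the log2 fold change of Tgm1 was 0.28 and without it 1.74. Tgm1 was thus high in the libraries with Y-linked expression and close to NS in the library without it. Replicate 3 was also the lowest MSC-EVs library in the myeloid marker lists. The monocyte and neutrophil list of 11 genes summed to 34.8, 28.1 and 3.59 CPM in MSC-EVs replicates 1, 2 and 3, beside 5.45 to 15.4 CPM in NS. The microglia and macrophage list summed to 576, 680 and 380 CPM, beside 466 to 575 CPM in NS. In both lists replicate 3 lay below every NS library, whereas in Tgm1 it lay just above them. The part of Y-linked expression, sex or myeloid RNA in the level of Tgm1 was not tested.

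Casr had 19, 47 and 82 counts in the MSC-EVs libraries, or 0.795, 2.01 and 1.28 CPM. Their sum was 148 counts (exact Poisson 95% interval 125 to 174) against 13 in NS. The MSC-EVs to NS ratio per effective library size was 7.35 (exact 95% interval 4.17 to 14.1). These intervals cover counting error only, while the MSC-EVs libraries themselves spread 2.53-fold. Casr passed the expression filter here only through its MSC-EVs libraries. The same difference chose the gene, so the interval is a description and not a test. The gene remained low after MSC-EVs, with a mean of 0.33 ± 0.161 FPKM (SD, n = 3), but each MSC-EVs library exceeded each WT and NS library. The fitted log2 fold change was 2.84 ± 0.56.

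**Figure D3:**
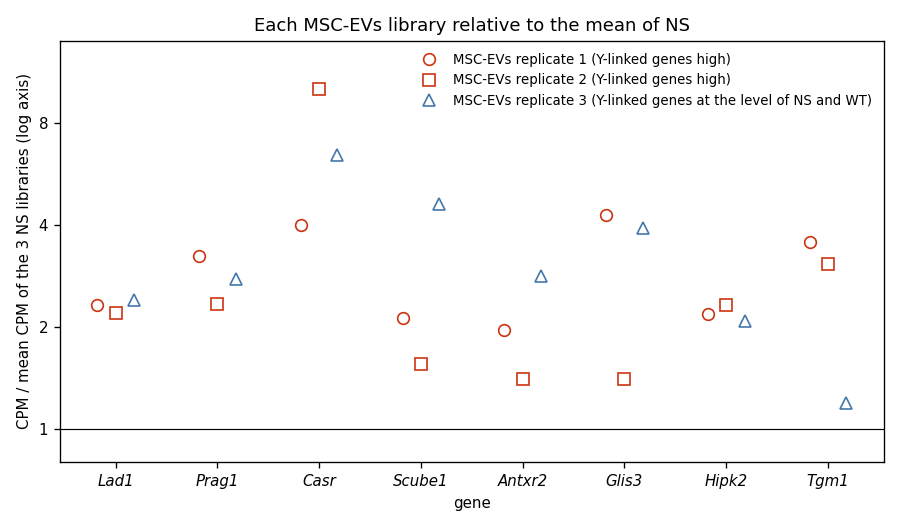
CPM of each MSC-EVs library divided by the mean CPM of the 3 NS libraries (y axis, log scale, line at 1) for the 8 genes, with replicate 3, whose Y-linked genes were as low as in NS and WT, in blue. Replicate 3 lies between 1.20 for Tgm1 and 6.44 for Casr, and the symbols lie close together in Lad1 and Hipk2 and far apart in Scube1, Glis3 and Tgm1.

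Relative to the NS mean, MSC-EVs replicate 3 alone stood at 2.41 for Lad1, 2.77 for Prag1, 6.44 for Casr and 4.63 for Scube1. It stood at 2.84 for Antxr2, 3.93 for Glis3, 2.09 for Hipk2 and 1.20 for Tgm1. This library also took part in choosing the genes, so these ratios are a description. For Tgm1 the ratio was smaller than the 1.35-fold spread of the NS libraries themselves, and its log2 fold change with replicate 3 alone was 0.28 ± 0.29.

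Levels can be compared between genes in FPKM, which takes transcript length into account. In WT, Hipk2 was the most abundant of the 8, at 11.5 ± 2.33 FPKM (SD, n = 3), followed by Antxr2, at 2.37 ± 0.231 FPKM. Lad1, Prag1, Glis3 and Scube1 followed at 0.877, 0.65, 0.333 and 0.253 FPKM, each with libraries that did not overlap those of its neighbours in this order. Tgm1 and Casr were lowest, at 0.0467 and 0.04 FPKM, and their libraries overlapped. In NS the order was Hipk2 at 9.21 ± 4.12 FPKM, Lad1 at 4.97 ± 0.869 FPKM and Antxr2 at 4.46 ± 1.00 FPKM, with the libraries of Lad1 and Antxr2 overlapping. Prag1 stood at 1.86 FPKM, Tgm1 and Scube1, which overlapped, at 1.09 and 1.00 FPKM, Glis3 at 0.633 FPKM and Casr at 0.05 FPKM. After MSC-EVs, Hipk2 stood at 21.4 ± 1.3 FPKM, Lad1 at 11.4 ± 0.445 FPKM, Antxr2 at 9.15 ± 3.12 FPKM and Prag1 at 5.13 ± 0.836 FPKM. The libraries of Lad1 lay inside the range of those of Antxr2. Tgm1, Scube1 and Glis3 overlapped one another at 2.82, 2.66 and 2.22 FPKM.

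The closest relatives of the genes, whose values the choice of the 8 did not use, were then examined. Of 19 relatives listed, 18 were in the table and 14 were tested between MSC-EVs and NS, and 2 rose and none fell, where 0.914% of all genes tested were called higher and 0.251% lower. They were Peak1, the pseudokinase scaffold related to Prag1, and Tgm2, the widely expressed transglutaminase. Peak1 stood at 24.5, 24.5 and 21.9 CPM in WT, at 33.8, 27.1 and 32.7 CPM in NS and at 47.2, 44.3 and 44.0 CPM after MSC-EVs. All MSC-EVs libraries were above all NS libraries, and Peak1 rose by 0.54 ± 0.10 on the log2 scale (edgeR adjusted p = 0.0401). Tgm2 stood at 8.44, 7.88 and 9.31 CPM in WT, at 35.5, 36.9 and 37.8 CPM in NS and at 68.0, 62.4 and 46.4 CPM after MSC-EVs (log2 fold change against NS 0.68 ± 0.13, edgeR adjusted p = 0.0489). As in Tgm1, replicate 3 was the lowest MSC-EVs library of Tgm2. Neither call held when NS replicate 2, NS replicate 3 or else replicate 1 of MSC-EVs was left out. Tgm2 was also not called without NS replicate 1, nor Peak1 without MSC-EVs replicate 3, and neither was called with MSC-EVs replicate 3 alone.

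The other relatives did not pass the threshold between MSC-EVs and NS with all libraries in edgeR. Antxr1, the other anthrax toxin receptor of the retina, stood at 55.9, 54.0 and 51.9 CPM in NS and at 36.5, 50 and 27.9 CPM after MSC-EVs (log2 fold change -0.51 ± 0.20, edgeR adjusted p = 0.219). Antxr1 was called lower with the DESeq2 Wald test, without MSC-EVs replicate 2 and with MSC-EVs replicate 3 alone. Its libraries were thus lower after MSC-EVs where those of Antxr2 were higher, and the difference between the receptors was not tested. In FPKM, Antxr1 was above Antxr2 in WT, at 5.09 against 2.37, and in NS, at 11.2 against 4.46, and overlapped it after MSC-EVs, at 7.74 against 9.15. Hipk1 and Hipk3, the kinases closest to Hipk2, remained more abundant than Hipk2 in every group, at 38.0 and 32.5 FPKM against 21.4 FPKM after MSC-EVs. Glis2 stood at 8.32 FPKM in NS and 9.55 FPKM after MSC-EVs, above Glis3 in both, and Gprc6a, the receptor closest to Casr, had no count in any library.

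Between NS and WT, calls were about as common among the relatives as among all genes tested, of which 31.2% were higher and 30.1% lower. Of 15 relatives tested, 5 rose, namely Peak1, Antxr1, Glis2, Tgm2 and F13a1, the coagulation factor XIII A subunit, and 4 fell, namely Scube2, Hipk3, Tgm4 and Tgm7. The log2 fold change was 2.10 ± 0.09 for Tgm2, 0.94 ± 0.07 for Antxr1 and 0.53 for Glis2. Scube2 fell by 1.61 on the log2 scale where Scube1 rose by 1.61, and Scube3 was at 4.32 ± 0.173 CPM in WT and 4.23 ± 0.439 CPM in NS (SD, n = 3). In the transglutaminase family, Tgm4 fell by 1.03 and Tgm7 fell by 2.6 on the log2 scale where Tgm1 and Tgm2 rose. Against WT, 4 relatives of 14 tested were higher after MSC-EVs, namely Peak1, Glis2, Hipk1 and Tgm2, and the 4 that fell with NS were lower too, near the 28.3% higher and 27.2% lower of all genes tested.

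**Figure D4:**
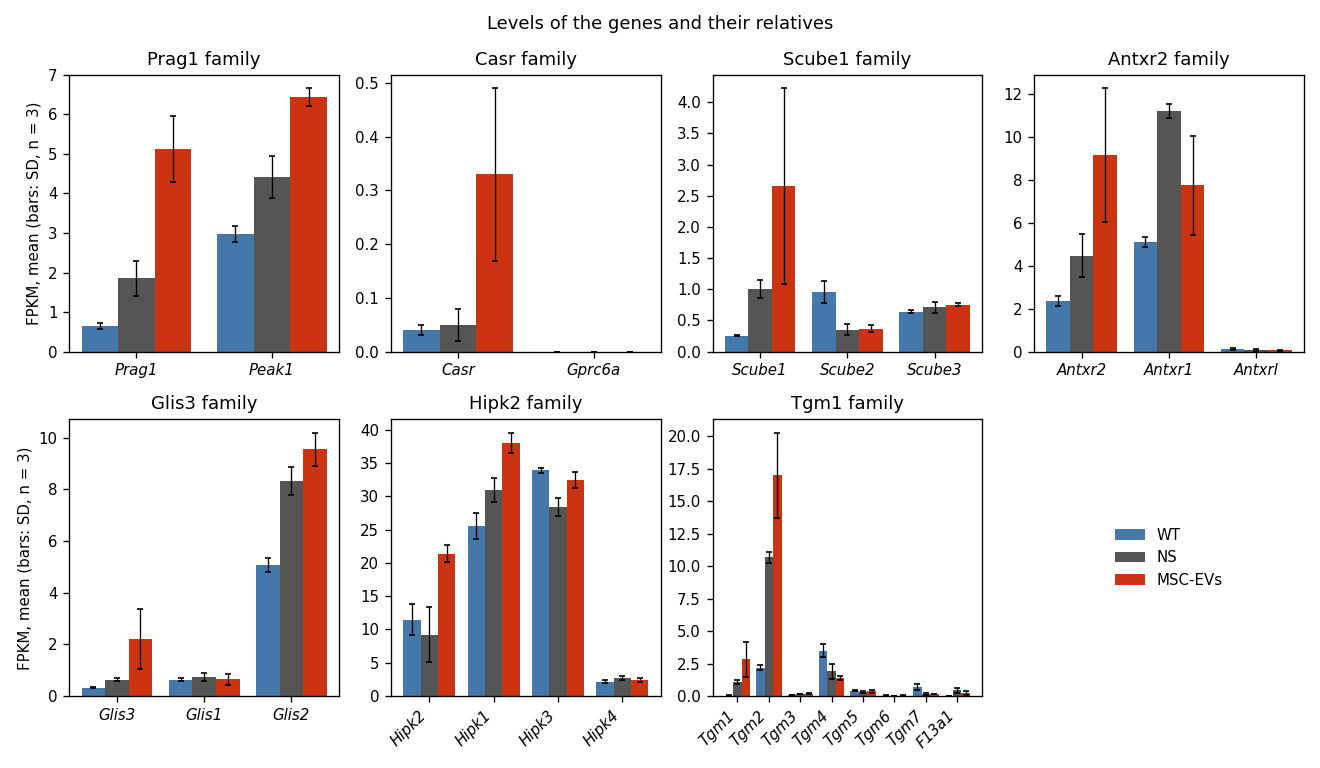
FPKM (y axis, linear, from 0, a scale of its own in each panel) of 7 of the genes and their relatives in WT, NS and MSC-EVs, as bars of the group mean with the SD of 3 libraries. After MSC-EVs, Tgm2 stands at 17.0 FPKM above Tgm1 at 2.82 FPKM, and Antxr1 is lower than in NS where Antxr2 is higher.

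The pathways around the genes were read from 7 lists of partners, with 76 genes listed, 75 in the table and 64 tested. Between NS and WT, 33 rose and 9 fell, 65.6% called in all, beside 31.2% higher and 30.1% lower over all genes tested. The total is near that of all genes, but calls higher were more common and calls lower less common among the partners. The lists were chosen with earlier results of these data known, so this difference is not independent of the choice. No list was tested as a set, so the counts in the lists that follow describe their members only. Between MSC-EVs and NS, 1 of 64 rose and none fell, or 1.56%, so calls were about as rare among the partners as among all genes. That gene was Dhh, a hedgehog ligand, which stood at 25.9, 25.3 and 25.3 CPM in WT, at 9.53, 11.1 and 9.16 CPM in NS and at 16.0, 16.6 and 19.2 CPM after MSC-EVs. It fell in NS against WT, by 1.37 on the log2 scale, and was higher after MSC-EVs than after NS by 0.81 ± 0.12 (edgeR adjusted p = 0.0261), a call that was lost without any of the 3 NS libraries or MSC-EVs replicate 1. All MSC-EVs libraries of Dhh lay between those of NS and WT, unlike the 8 genes.

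Around Lad1, the list of basement membrane anchorage (hemidesmosome and matrix genes) had 10 of 11 genes tested. Of these, 8 rose between WT and NS and none fell, beside 31.2% higher and 30.1% lower over all genes tested. Col17a1, a hemidesmosomal collagen, rose by 1.39 on the log2 scale, from 3.37 to 8.85 CPM, and Itga6, an integrin subunit of hemidesmosomes, by 1.17, from 7.36 to 16.5 CPM. None of the 10 was called between MSC-EVs and NS, where the median was -0.04. Around Antxr2, 6 of 8 matrix ligands and coreceptors rose between WT and NS, such as Col4a1, a collagen IV chain, by 1.19 on the log2 scale, and Col6a3, a collagen VI chain, by 1.81, and none was called between MSC-EVs and NS.

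Around Scube1 and Glis3, the hedgehog list had 13 of 16 genes tested. Between WT and NS 7 rose, Shh, Smo, Boc, Cdon, Disp2, Gli2 and Gli3, and 3 fell, Dhh, Ptch1 and Sufu. These counts stand beside 31.2% higher and 30.1% lower over all genes tested. The ligand Shh rose by 0.72 and the transcription factor Gli2 by 1.1 on the log2 scale, while the receptor Ptch1 fell by 0.31. Around Casr, 2 of 6 tested genes rose between WT and NS, the G protein subunits Gnaq and Gnai2, a share near that of all genes. None of the list was called between MSC-EVs and NS. Pth, the hormone whose release Casr controls in the parathyroid, had no count in any library.

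Around Prag1, 5 of 9 partners rose between WT and NS and 3 fell, where 31.2% of all genes tested were called higher and 30.1% lower. Rnd2, the GTPase that pragmin binds, rose by 0.66 on the log2 scale and the kinase Src by 0.67, while Csk, the kinase that restrains Src, fell by 0.20. Around Hipk2, 2 of 11 partners rose and 3 fell, neither above the share over all genes. Those that rose were Trp53, the p53 gene, by 0.90 on the log2 scale, and the ubiquitin ligase adaptor Wsb1. Those that fell were Ctbp1, Ctbp2 and Axin1. Around Tgm1, 7 of 12 cornified envelope genes in the table were tested and 3 rose, Ppl, Cdsn and Sprr1a. The envelope genes stayed low as a group, with a summed level of 9.56 to 10.6 CPM in WT, 15.7 to 16.7 CPM in NS and 13.5 to 17.6 CPM after MSC-EVs. In none of these lists was a partner called between MSC-EVs and NS, with the exception of Dhh.

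**Figure D5:**
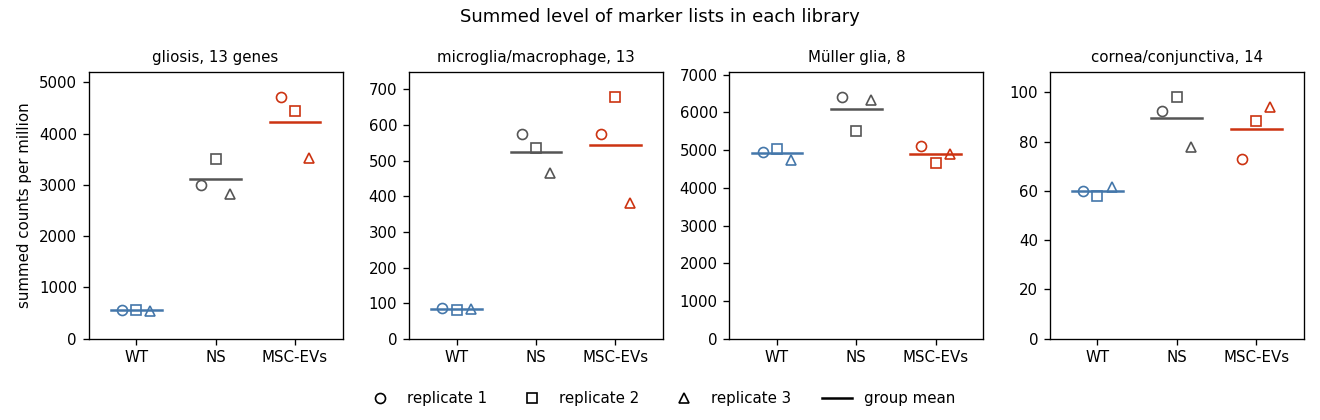
Summed CPM (y axis, linear, from 0) of 4 marker lists in each library, with a symbol for each replicate number and a line for the group mean. The gliosis sums after MSC-EVs, 3530 to 4720 CPM, lie just above those of NS, 2830 to 3510 CPM, while the microglia and cornea sums of the 2 groups overlap. The Müller glia sums after MSC-EVs, 4650 to 5100 CPM, all lie below those of NS, 5520 to 6420 CPM.

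Lists of marker genes were read beside these results, since Lad1 and Tgm1 are best known from surface epithelia. The 14 cornea and conjunctiva epithelium markers summed to 58.1 to 61.4 CPM in WT, 77.7 to 98.3 CPM in NS and 73.0 to 93.9 CPM after MSC-EVs. Most of this sum was Krt18, with means of 55.9 CPM in WT, 83.4 CPM in NS and 79 CPM after MSC-EVs. Among Krt5, Krt12, Krt13, Krt14 and Krt4 the highest group mean was 0.456 CPM, for Krt12 after MSC-EVs. The sum therefore says little about surface epithelium. None of the 6 tested was called between MSC-EVs and NS. The sums of NS and MSC-EVs overlapped, as they did for the retinal pigment epithelium list (58.4 to 228 CPM in NS and 61.4 to 183 CPM after MSC-EVs), the lens list (15.6 to 22.6 and 6.86 to 51.4 CPM), the microglia and macrophage list (466 to 575 and 380 to 680 CPM), the fibroblast list (66 to 71.2 and 65.8 to 69.3 CPM) and the endothelial and pericyte list (684 to 742 and 663 to 776 CPM). The monocyte and neutrophil list, with Elane at 0 in every library, summed to 15.4, 9.07 and 5.45 CPM in NS and to 34.8, 28.1 and 3.59 CPM after MSC-EVs. Its MSC-EVs replicates 1 and 2 lay above every NS library and replicate 3 below. The same MSC-EVs libraries were high and low in Tgm1, although its replicate 3 lay just above NS. No gene of these lists was called between MSC-EVs and NS.

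The sum of the gliosis list moved in the same direction as the genes, though most of its genes were not called between MSC-EVs and NS. All 13 gliosis genes rose between WT and NS, where 31.2% of all genes tested were called higher. Their sum went from 541 to 565 CPM to 2830 to 3510 CPM. After MSC-EVs the sum was 3530 to 4720 CPM, with replicate 3 lowest and just above the highest NS library. Against NS, 3 of the 13 rose and none fell, where 0.914% of all genes tested were called higher. These 3 calls were not followed through the alternative fits. The Müller glia list of 8 genes summed to 4750 to 5040 CPM in WT, 5520 to 6420 CPM in NS and 4650 to 5100 CPM after MSC-EVs. Its MSC-EVs libraries thus all lay below its NS libraries, in the opposite direction to the gliosis list, with no gene called between the rd10 groups. All 13 microglia and macrophage genes also rose between WT and NS, beside the same 31.2% of all genes tested. The part of glial and microglial RNA in the levels of the 8 genes was not tested.

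The genes whose pattern was most like each of the 8 were found by the root mean square difference of centred log2 CPM over all 9 libraries, among 14537 genes. Casr was not compared, since it did not pass the filter in NS against WT. Nearest to Lad1 were Cd109, a surface glycoprotein that binds TGF-beta, at 0.25, and Fgf2, a growth factor of the gliosis list, at 0.27. Fgf2 stood at means of 50.4 CPM in WT and 214 CPM in NS and at 448, 370 and 444 CPM after MSC-EVs. Prag1 and Scube1 shared their nearest genes, Fhad1 and Loxl4, a lysyl oxidase that cross-links collagen. Loxl4 lay at 0.28 from Prag1 and 0.30 from Scube1, and Prag1 and Scube1 lay 0.38 apart, the closest pair among the 8.

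Antxr2 was closest to Myo10, an unconventional myosin of filopodia, and to Lrrc2, both at 0.18. Glis3 was closest to Ror2, a receptor for Wnt5a, at 0.33, and Ror2 had the same low replicate 2, at 9.24, 3.76 and 8.19 CPM after MSC-EVs. Hipk2 was closest to Klhl11 at 0.20 and to Tcp11l1 at 0.25, both with a lower mean in NS than in WT. Tgm1 had no near match: Fcgr2b, an inhibitory Fc receptor of microglia and macrophages, and Tcstv1 both lay at 0.45. Fcgr2b stood at 28.4, 30.2 and 12.4 CPM after MSC-EVs, so that replicate 3 was the low library in Fcgr2b as in Tgm1, and at a mean of 12.8 CPM in NS. Hipk2 and Tgm1 lay 2.03 apart, the farthest pair among the 8. These distances are descriptions over libraries whose values also chose the 8 genes.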

How the data were processed

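RNA-seq of 9 mouse retina libraries at P28 was read from a table of all genes. The authors deposited an estimated count per gene and library, not scaled to depth, and an FPKM value, which they scaled to transcript length and depth. Poly(A) RNA libraries were made with random primers. The submitters' processing notes name fastp, Bowtie2, HISAT2, StringTie 1.3.1 and RSEM, and the genome build and annotation are not given in the sources used here. Of the 22337 identifiers, 22232 were matched to GENCODE M21 (GRCm38) for positions.

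Estimated counts were rounded to whole numbers (9.16% to 11.7% of genes per library carried decimals), although the design had assumed counts. Each pair of groups was fitted on its 6 libraries in R 4.3.3 with edgeR 4.0.16: filterByExpr, TMM, robust glmQLFit and glmQLFTest, with Benjamini-Hochberg adjustment over all genes tested and a call at an adjusted p under 0.05. The SE is the size of the log2 fold change over the root of F. DESeq2 1.42.0 and limma 3.58.1 on log2(FPKM + 1) were alternatives, as were other normalizations, filters, all libraries in one fit, a replicate block, an added log2 fold change limit of 1 and each library left out. The fits were tested on simulated counts.

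The members, lists and tests were chosen with earlier results of these data known. Named were the 8 genes, relatives and pathway genes called in a comparison (for long lists, examples), relatives whose level is compared, and for each of the 8 the 2 genes of most similar pattern (0.1 CPM added before the log). A gene that this rule could name is not reported here. Marker genes are given as lists, with some keratins of the cornea list named for their share of its sum. The lists also covered ciliary body and iris (77.8 to 122 CPM in NS, 41.9 to 85.1 CPM after MSC-EVs) and cone (1060 to 1150 and 849 to 1110 CPM). In these 2 lists no gene was called between MSC-EVs and NS. Replicates within a group were distinct libraries by their counts.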

Additional observations from a re-analysis of the deposited data

How the results depend on the processing

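The direction of the fitted log2 fold changes of the 8 genes was the same under all alternatives. There were 97 values for NS against WT, 118 for MSC-EVs against WT and 119 for MSC-EVs against NS. Each MSC-EVs library lay above each NS and WT library in all 8 genes. Leaving out a library could therefore not turn a direction that involves MSC-EVs, and nothing is read from those directions. Of the values, 93, 116 and 110 also kept their call or stayed within 1 SD of replicates. The exceptions with a test were Antxr2, Glis3 and Hipk2, as given above, and Hipk2 in NS against WT under the replicate block (log2 fold change -0.49, adjusted p = 0.0326). The pseudocount of limma on log2(FPKM + 1) gave the lowest values for low-level genes, such as 0.33 for Casr in MSC-EVs against NS.

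The number of the 8 genes called between MSC-EVs and NS was 3, with 172 genes called in all, and it changed with the total. It was 7 of 916 with the DESeq2 Wald test, which did not call Casr, and 6 of 1026 with all 9 libraries in one fit. With a library left out it was between 0 and 6. It was 0 without NS replicate 3 or MSC-EVs replicate 1, and 6 of 676 without MSC-EVs replicate 2. Nothing is read from these counts, since this comparison chose the genes. Without NS replicate 3 or MSC-EVs replicate 1, edgeR called 0 of all genes, with 1991 and 2052 at an unadjusted p under 0.05. Of relatives, 2 in the same comparison, 1 was called with DESeq2 size factors or upper-quartile factors (Peak1) and 1 with MSC-EVs replicate 3 alone (Antxr1, lower, with Peak1 and Tgm2 both lost), 0 with limma or the added fold limit, and 0 to 3 with a library left out. Of pathway genes, 1, there were 6 with DESeq2 or all 9 libraries, 2 under the replicate block and with MSC-EVs replicate 3 alone, 0 with limma or the fold limit, and 0 to 3 with a library left out. The fold limit left 5 of 9 relatives and 14 of 42 pathway genes in NS against WT. limma had 3134 genes at an unadjusted p under 0.05 in MSC-EVs against NS.

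Same-numbered deviations correlated at -0.08 to 0.28 over the 3 comparisons, and at 0.09, 0.21 and 0.28 between MSC-EVs and NS. Differently numbered libraries were not correlated, so whether the replicate numbers pair the libraries cannot be told from these values. With the replicate block, which pairs libraries by number, 7 of the 8 genes were called in NS against WT in place of 6. In MSC-EVs against NS it was 3 as without the block, while calls over all genes went from 172 to 403. Requiring 10 counts per library removed Casr from each comparison and Tgm1 from those with WT, and Casr rests on 2 to 7 counts per NS library.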
